A study of Mus musculus with 6 samples.

Results

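Dual-specificity MAPK phosphatases switch off mitogen-activated protein kinases by removing phosphate from both the threonine and the tyrosine of the kinase activation loop. The 9 genes described here, Dusp1, Dusp2, Dusp4, Dusp5, Dusp6, Dusp7, Dusp8, Dusp10 and Dusp16, were taken from the lung count table by gene symbol, as 9 of its 54532 genes. The RNA came from lungs of GRdim/dim and GR+/+ mice, 3 animals per genotype, and was sequenced in bulk to compare impaired with intact glucocorticoid receptor signaling after hemorrhagic shock. In GRdim/dim mice a point mutation of the glucocorticoid receptor, present in every cell, impairs its dimerization, and GR+/+ mice were the wild-type controls. Both groups had a 129/SvEv and C57BL/6 mixed background and an age of 10 to 16 weeks. Sex was not balanced, since the sequenced GR+/+ mice were 2 females and 1 male and the GRdim/dim mice 1 female and 2 males. All animals were anesthetized, ventilated, bled for 1 h to a mean arterial pressure of 35 mmHg and then resuscitated for 4 h, so the libraries hold no group without shock.

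Most phosphatases of the family are transcribed in response to the kinases they inactivate and so work as feedback brakes. Among the genes described here, the nuclear enzymes are typically inducible within minutes to hours. Of the others, a cytoplasmic pair acts on ERK and another set prefers JNK and p38. Dusp1 is also a classical target of the glucocorticoid receptor, and in macrophages and airway cells its product limits p38 and JNK signaling and the cytokine mRNAs that depend on them.

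The libraries held 16638859, 16361747 and 32082940 counts in GR+/+ replicates 1, 2 and 3, and 18308562, 24444604 and 15687734 in GRdim/dim replicates 1, 2 and 3. Levels are given as CPM, counts scaled to a library of 1000000 after TMM correction of library sizes. Defining markers of lung were abundant in all libraries. Sftpc of alveolar type 2 cells ranged from 9270 to 16400 CPM and Scgb1a1 of club cells from 13800 to 27500 CPM. Ager of alveolar type 1 cells lay between 1580 and 2830 CPM, and Cdh5 of endothelium between 529 and 977 CPM. In bulk tissue, fewer cells of a type and less RNA per cell cannot be told apart.

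None of the phosphatases passed the test between genotypes. A gene was called when its Benjamini-Hochberg adjusted p in the edgeR quasi-likelihood test was under 0.05 and its log2 fold change was beyond 0.5 in either direction. By this rule 0 of 9 members were called, against 0.169% of the 16568 genes tested, that is 28 genes, of which 12 (0.0724%) were higher and 16 (0.0966%) lower in GRdim/dim lungs. At an unadjusted p under 0.05 the count was 1 of 9 members, Dusp5, against 9.6% of all genes tested, and DESeq2 likewise called 0 members with 1 at that unadjusted level. The count at that level was 4 with a sex-linked covariate, where Dusp2, Dusp6 and Dusp10 joined Dusp5, and 4 without GRdim/dim replicate 1. It was 3 without GR+/+ replicate 2 and 3 without a filter on low counts. The 28 calls became 12, 4 and 17 without GR+/+ replicates 1, 2 and 3, and 14 without GRdim/dim replicate 3.

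The direction was nevertheless uneven over the members. The log2 fold change of GRdim/dim over GR+/+ was above 0 for 8 of 9 members and below 0 for Dusp4 under both TMM and RLE scaling, with a median of 0.38, while 50.9% of all genes tested lay above 0 with a median of 0.01. Without GRdim/dim replicate 2 the median of the members was 0.19, and without GR+/+ replicate 2 it was 0.25, and with the sex-linked covariate it was 0.54. For Dusp5 and Dusp10, 2 of 9 members, every GRdim/dim library exceeded every GR+/+ library. Across all genes tested the genotypes did not overlap for 14.8%, with GRdim/dim above for 7.77% and below for 7.05%.

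**Figure D1:**
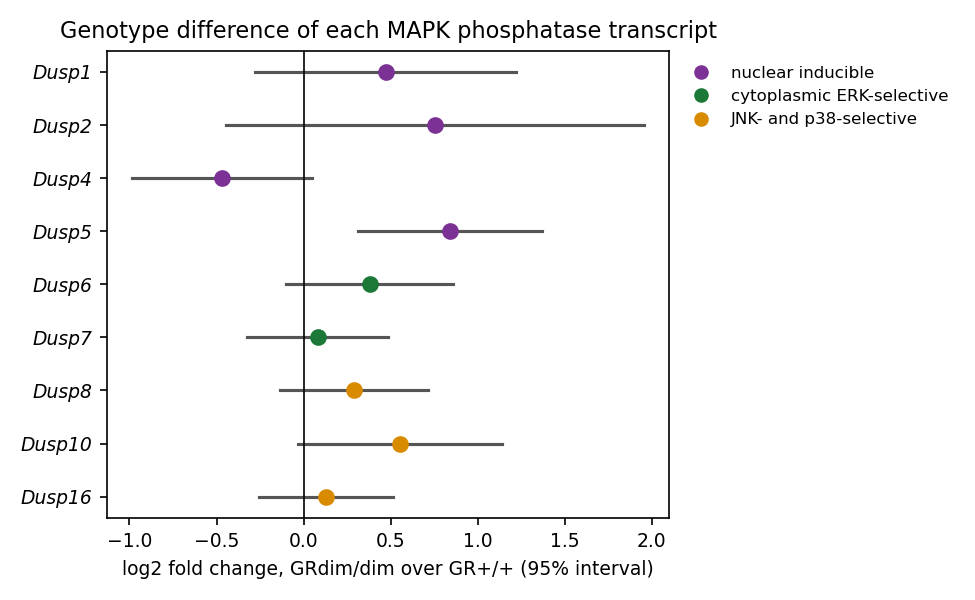
Log2 fold change of each phosphatase, GRdim/dim over GR+/+, from the edgeR fit of 3 against 3 libraries. Points are estimates, bars are 95% intervals and colours mark the 3 subfamilies. The interval of Dusp5, 0.31 to 1.37, is the one that does not include 0.

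The members differed far more from each other than between genotypes. Per kilobase of gene length, Dusp1 had a mean level of 241 ± 102 CPM per kilobase (SD, n = 6 libraries), and it stood above every other member in 6 of 6 libraries. Dusp6 and Dusp7 followed at 53.9 ± 13.03 and 53.9 ± 7.22 CPM per kilobase and could not be ranked, as each was the higher one in 3 libraries. Next came Dusp8, Dusp16, Dusp4 and Dusp5 at 10.04, 9.99, 8.99 and 8.77 CPM per kilobase, with overlapping ranges. Dusp10 at 2.91 and Dusp2 at 1.95 CPM per kilobase closed the order, and Dusp10 was above Dusp2 in 5 of 6 libraries.

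Dusp1 therefore dominated the summed phosphatase level. The 9 genes together reached 349, 272 and 400 CPM per kilobase in GR+/+ replicates 1, 2 and 3, and 332, 614 and 382 in GRdim/dim replicates 1, 2 and 3. The means of 340 ± 64.1 and 442 ± 151 CPM per kilobase (SD, n = 3) differed by less than the spread within GRdim/dim. Dusp1 supplied 49.5% to 67.4% of this sum in GR+/+ and 56.7% to 69.7% in GRdim/dim. These values rest on the deposited Dusp1 length of 2697 bases. With the 3311 exon bases of a longer GENCODE model, an alternative added after the data were seen, the shares were 44.4% to 62.7% and 51.6% to 65.2%, and Dusp1 at no less than 110 CPM per kilobase was still the most abundant member in each library. The cytoplasmic pair supplied 22.1% to 37.8% over all libraries, and the JNK- and p38-selective members 4.49% to 6.83%.

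**Figure D2:**
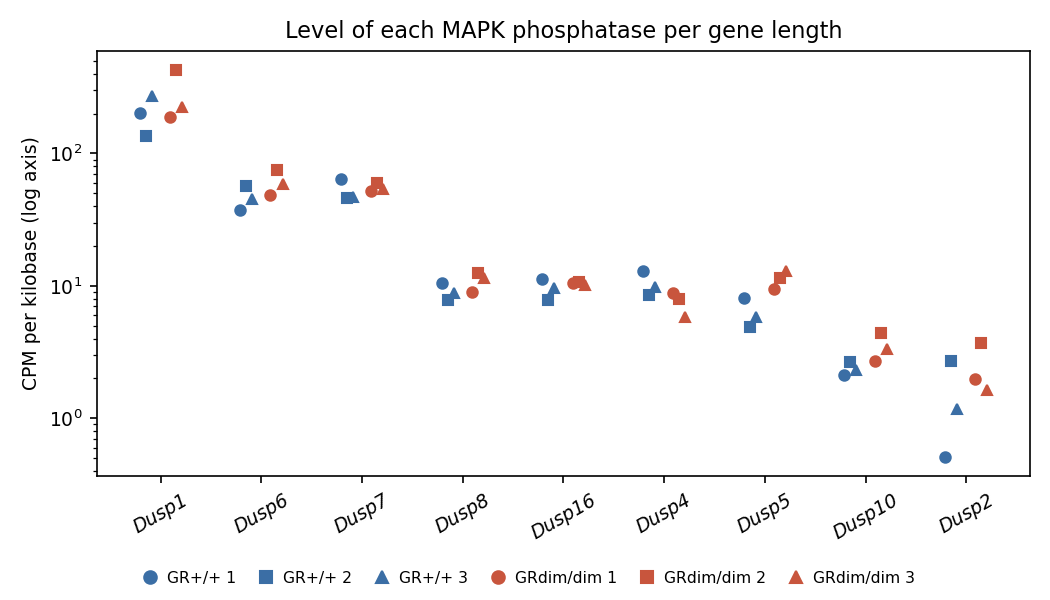
Level of each phosphatase in CPM per kilobase of gene length, on a log axis, ordered by the mean over 6 libraries. Each point is a library, blue for GR+/+ and red for GRdim/dim. Dusp1 lies apart from Dusp6 and Dusp7, and 4 members share a level near 10.

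Among the nuclear inducible enzymes, Dusp1 inactivates p38, JNK and to a lesser degree ERK. The gene (ENSMUSG00000024190, minus strand, chr17:26505590-26508519 of GRCm38) has a promoter that is shown because Dusp1 was the most abundant member. The window, chr17:26508423-26508722 on the minus strand, runs from 250 bases before to 50 bases after the RefSeq start site. Capitals mark a cAMP response element, TGACGTCA, and an E-box, CACGTG.

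Dusp1: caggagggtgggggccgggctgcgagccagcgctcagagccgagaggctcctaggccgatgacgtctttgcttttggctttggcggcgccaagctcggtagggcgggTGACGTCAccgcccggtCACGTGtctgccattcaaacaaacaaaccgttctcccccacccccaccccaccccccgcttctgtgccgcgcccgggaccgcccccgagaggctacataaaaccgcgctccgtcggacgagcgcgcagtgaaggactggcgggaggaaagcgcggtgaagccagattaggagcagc

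Dusp1 reached 542, 364 and 727 CPM in GR+/+ replicates 1, 2 and 3, and 507, 1150 and 604 CPM in GRdim/dim replicates 1, 2 and 3. The groups overlapped, GRdim/dim replicate 2 was the highest library and GR+/+ replicate 2 the lowest. Mean levels were 545 ± 182 CPM in GR+/+ and 755 ± 349 CPM in GRdim/dim (SD, n = 3). This gave a log2 fold change of 0.47 ± 0.34 (SE), with a 95% interval of -0.28 to 1.22 and an edgeR adjusted p of 0.731. On the linear scale the interval ran from 0.825 to 2.33, so a fall of Dusp1 below 0.825 of the wild-type level lay outside it. Without GRdim/dim replicate 2 the log2 fold change was 0.03, and over all single-library omissions it ranged from 0.03 to 0.74. The pooled SD of Dusp1 within genotypes, 0.57 on the log2 scale, was larger than that of 84.5% of the genes tested.

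**Figure D3:**
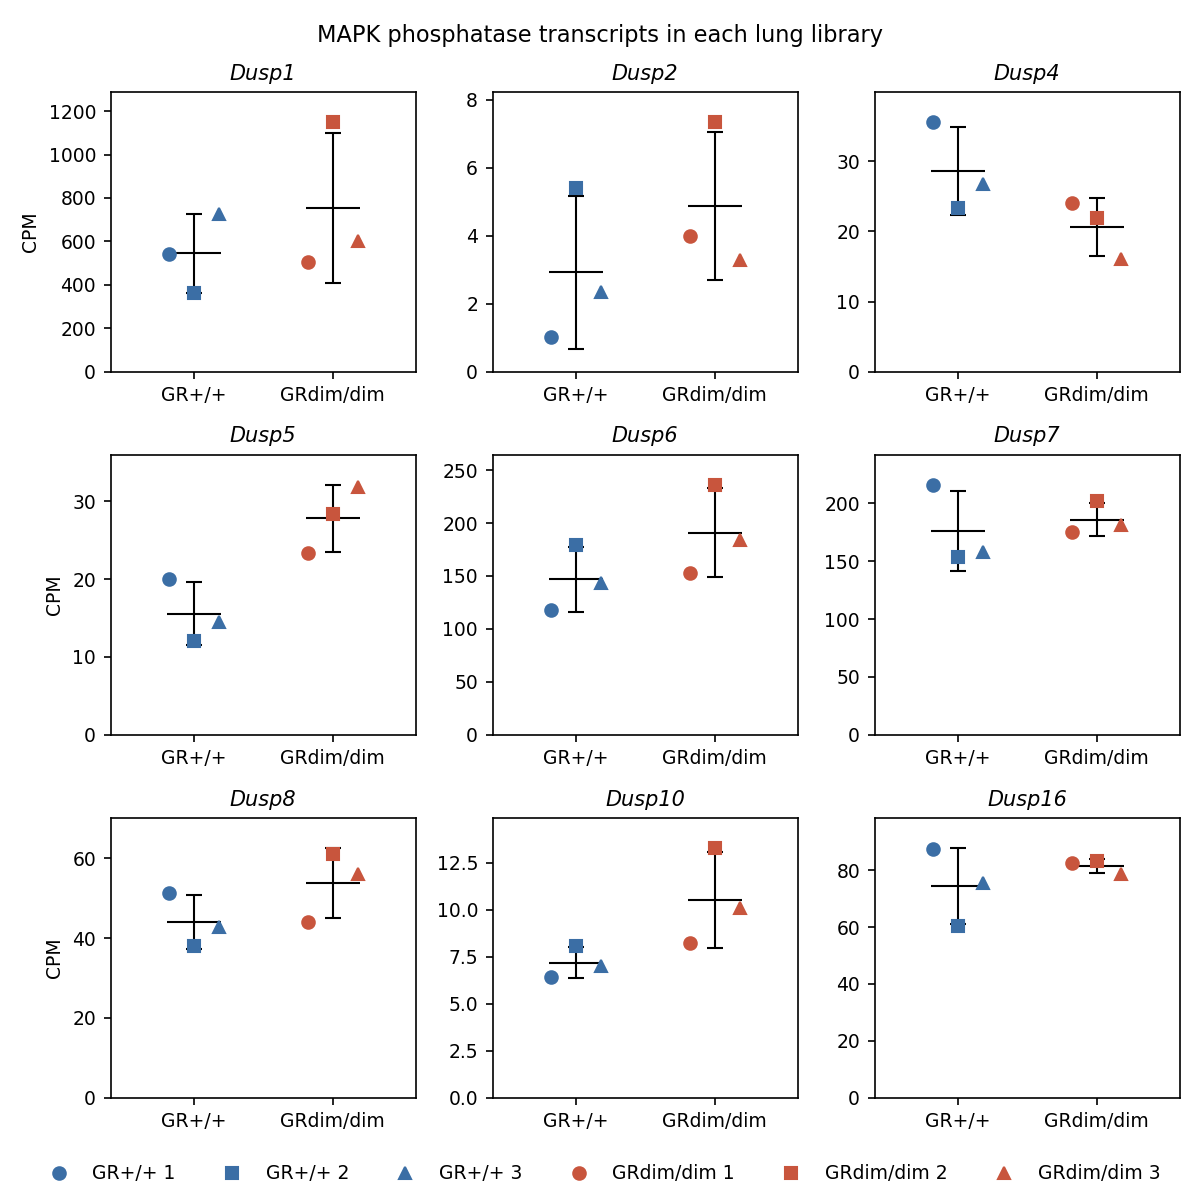
CPM of the 9 phosphatases in each of the 6 lung libraries, with the mean and SD of each genotype (n = 3). Marker shapes follow the replicate number. GRdim/dim replicate 2 is the highest library in 5 panels, those of Dusp1, Dusp2, Dusp6, Dusp8 and Dusp10.

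Other genes reported to respond to glucocorticoids are a natural comparison for Dusp1. Of the 15 glucocorticoid-induced genes listed, all tested, 1 was called, Pdk4, an inhibitor of pyruvate oxidation. Its level was 72.1, 62.0 and 65.4 CPM in GR+/+ replicates 1, 2 and 3 against 25.1, 21.1 and 23.8 CPM in GRdim/dim. Pdk4 had a log2 fold change of -1.51 ± 0.17 (SE) with an edgeR adjusted p of 0.00931, and genes called lower made up 0.0966% of those tested. Its adjusted p was 0.0506 without GR+/+ replicate 1 and 0.0507 without GR+/+ replicate 2.

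At an unadjusted p under 0.05, 6 of the 15 were lower and 1 higher in GRdim/dim, against 4.68% lower and 4.91% higher among all genes tested. Fkbp5, a chaperone of steroid receptors, had a log2 fold change of -1.25 ± 0.25 (SE). Klf9, a transcription factor, had -1.13 ± 0.24, and Tsc22d3, which encodes the anti-inflammatory protein GILZ, had -0.99 ± 0.23. The edgeR adjusted p of Fkbp5, Klf9 and Tsc22d3 was 0.103, 0.131 and 0.175, and none of them overlapped between genotypes. With DESeq2 the adjusted p of the same genes was 0.000504, 0.00182 and 0.00704. Zbtb16, a zinc finger transcription factor, had a log2 fold change of -1.68 ± 0.41 and an edgeR adjusted p of 0.22. DESeq2 called 5 of the 15, namely Fkbp5, Klf9, Pdk4, Tsc22d3 and Zbtb16, against 274 of the 16143 genes with a DESeq2 adjusted p. The edgeR fit without a filter on low counts called 7, the same genes with Cebpd and Ddit4, against 522 of 31368 genes. With the sex-linked covariate edgeR called 2, Fkbp5 and Pdk4, against 23 of 16568 genes. Cebpd, the most abundant gene of the list, had a log2 fold change of 0.92 ± 0.33 with an edgeR adjusted p of 0.417. The list median was -0.23, on the other side of 0 from Dusp1, and it was -0.43 without GR+/+ replicate 2 and -0.36 without GRdim/dim replicate 2. Whether Dusp1 differed from these genes was not tested.

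**Figure D4:**
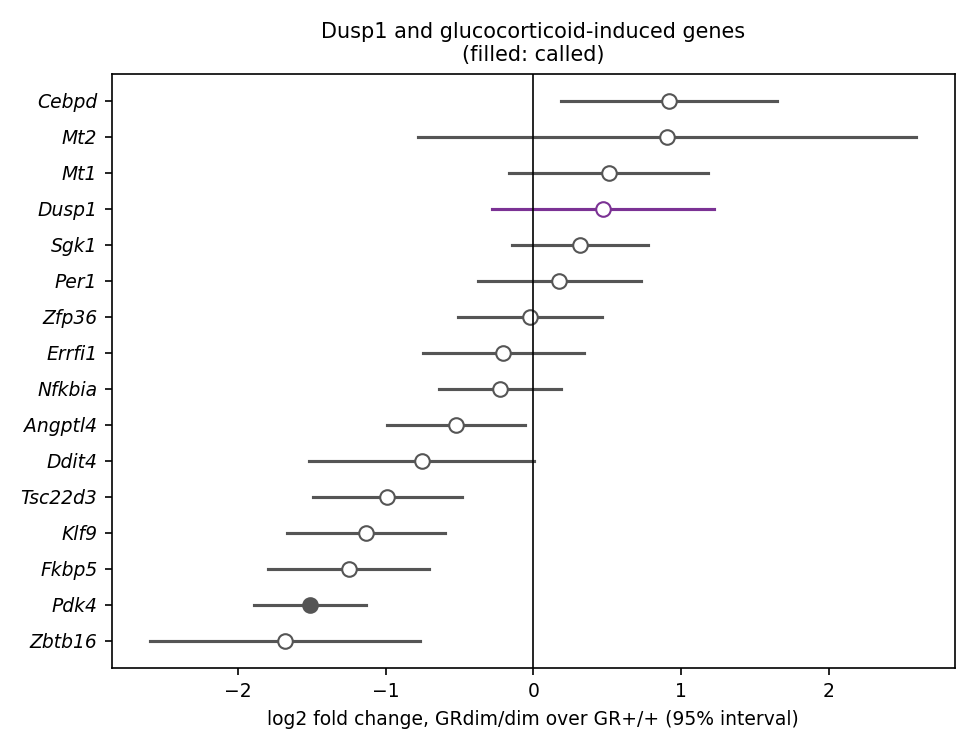
Log2 fold change of GRdim/dim over GR+/+ for Dusp1, in purple, and the 15 glucocorticoid-induced genes, with 95% intervals from the edgeR fit. The filled point is Pdk4 at -1.51, the gene that was called, and Dusp1 lies at 0.47.

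Immediate-early genes, which like Dusp1 are transcribed within minutes of kinase activation, were also uneven between libraries. Of 21 tested, 0 were called by edgeR, 7 were higher and 2 lower at an unadjusted p under 0.05, against 4.91% and 4.68% of all genes tested, and the list median was 0.52. Without GRdim/dim replicate 2 the median was 0.19 and without GRdim/dim replicate 1 it was 0.75, while the count of higher genes ranged from 3, without GR+/+ replicate 3, to 10, without GRdim/dim replicate 1. Without GRdim/dim replicate 1 edgeR called Nr4a3, a nuclear receptor gene chosen after its values were seen, at an adjusted p of 0.037, within a range of 0.037 to 0.678 over the alternatives. DESeq2 called 2 of the 21, Egr2 and Jun, against 274 of the 16143 genes with a DESeq2 adjusted p. The edgeR fit without a filter on low counts called 4, Egr2, Fos, Ier2 and Jun, against 522 of 31368 genes. Summed over the list, the level was 3613, 2664 and 2969 CPM in GR+/+ replicates 1, 2 and 3, and 3032, 5240 and 3628 CPM in GRdim/dim replicates 1, 2 and 3. The maximum again fell in GRdim/dim replicate 2, which was the highest library for 10 of the 21 genes, compared with 15.3% of all genes tested. Jun, the most abundant gene, was lower in GRdim/dim at 230, 350 and 239 CPM than in GR+/+ at 652, 439 and 437 CPM, without overlap. Its log2 fold change was -0.90 ± 0.24 (SE), with an edgeR adjusted p of 0.251 and a DESeq2 adjusted p of 0.0221.

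Ier2, a small nuclear protein, had a log2 fold change of 0.69 ± 0.19, and Egr2, a zinc finger transcription factor, had 1.16 ± 0.35. The adjusted p from edgeR was 0.286 for Ier2 and 0.319 for Egr2, and from DESeq2 it was 0.0883 for Ier2 and 0.0443 for Egr2. Nr4a1 and Fos were chosen after their values were seen. The orphan nuclear receptor gene Nr4a1 stood at 255, 73.1 and 144 CPM in GR+/+ and at 275, 992 and 353 CPM in GRdim/dim. Fos, which encodes an AP-1 subunit, stood at 132, 83.9 and 136 CPM in GR+/+ and at 171, 328 and 108 CPM in GRdim/dim. Both genes peaked in the library in which Dusp1 peaked, but they were chosen with that known. Of the 21 genes, 10 were highest there. Others were highest elsewhere, such as Egr1 and Egr2 in GRdim/dim replicate 1, Junb in GRdim/dim replicate 3 and Jun in GR+/+ replicate 1.

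The nearest patterns to Dusp1 over the 6 libraries were those of Bpgm, Mki67 and Rasgef1b. Likeness was the root mean square difference of log2 CPM after centring each gene on its mean, and it was 0.12, 0.18 and 0.18. Bpgm, which encodes a glycolytic enzyme abundant in red cells, had 43.8, 34.7 and 73.7 CPM in GR+/+ replicates 1, 2 and 3 and 45.3, 94.96 and 58.6 CPM in GRdim/dim. Erythroid markers were examined beside it. Of 7 listed, 6 were tested, 0 were called by edgeR and 1, Hba-a2, was higher at an unadjusted p under 0.05 (0 to 3 over omissions of a library), against 4.91% of all genes tested. None was at 0 in every library. DESeq2 called 0 of them. Without a filter on low counts edgeR called 522 of 31368 genes and 1 of these markers, Hba-a2, at an adjusted p of 0.02. Their summed level was 2134, 1110 and 4154 CPM in GR+/+ replicates 1, 2 and 3 and 1728, 4375 and 3392 CPM in GRdim/dim, with Hbb-bs the most abundant. From lowest to highest, the libraries stood in the same order for this sum as for Dusp1, which was true of 1 of the 21 lists. The part of blood content, of depth and of GRdim/dim replicate 2 in the Dusp1 values was not tested.

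**Figure D5:**
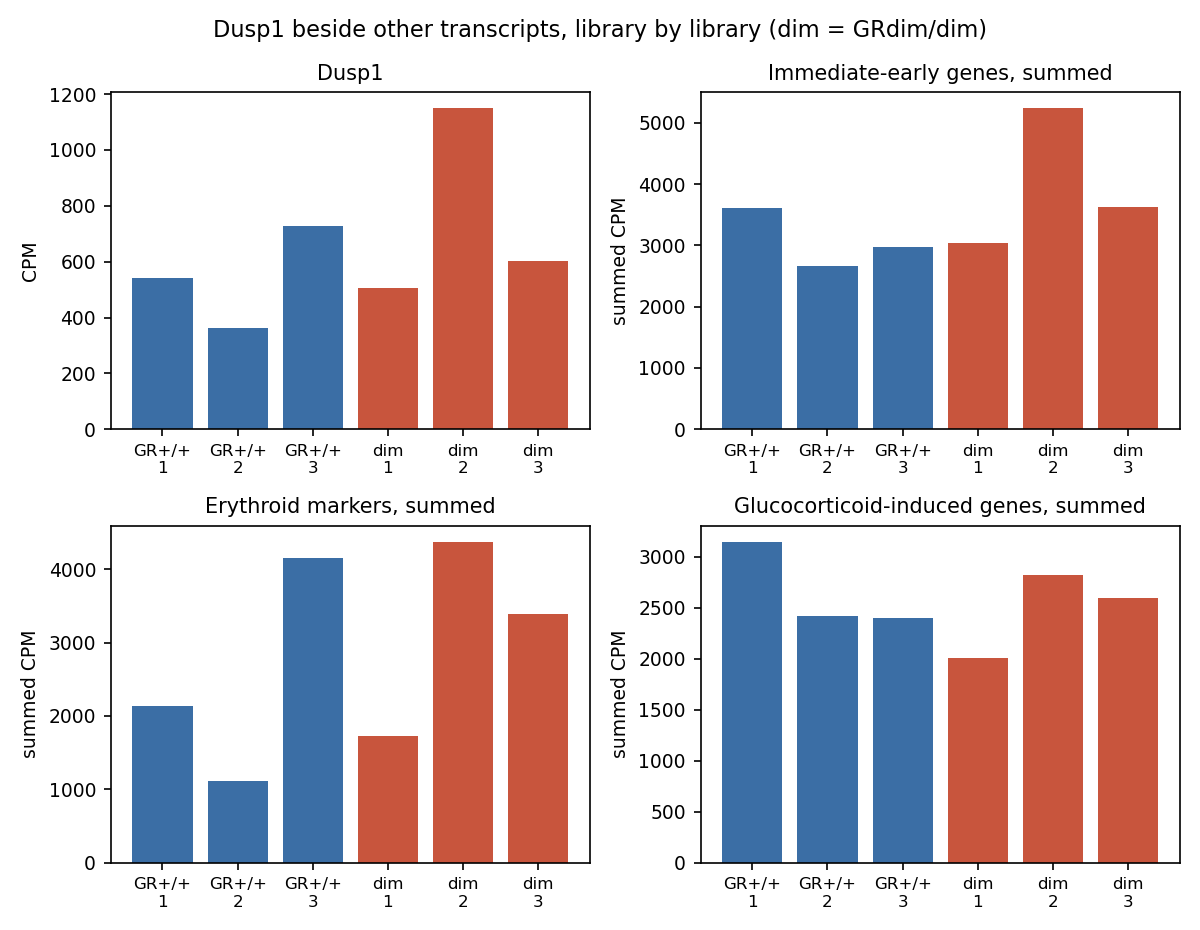
Dusp1 in CPM, and the summed CPM of immediate-early genes, erythroid markers and glucocorticoid-induced genes, in each of the 6 libraries. Blue bars are GR+/+ and red bars GRdim/dim. GRdim/dim replicate 2 has the tallest bar for Dusp1 at 1150 CPM, for immediate-early genes and for erythroid markers.

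Dusp5 is a nuclear phosphatase selective for ERK, and it gave the smallest p of the 9 members. Its promoter (plus strand, chr19:53528895-53529194) held an adjacent pair of CArG boxes, the element read by serum response factor, shown in capitals.

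Dusp5: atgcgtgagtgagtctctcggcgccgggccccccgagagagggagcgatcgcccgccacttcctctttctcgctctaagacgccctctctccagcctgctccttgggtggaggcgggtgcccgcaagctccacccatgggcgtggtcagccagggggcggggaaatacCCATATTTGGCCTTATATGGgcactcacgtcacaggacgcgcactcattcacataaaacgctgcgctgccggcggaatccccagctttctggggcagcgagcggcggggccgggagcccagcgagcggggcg

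Dusp5 (ENSMUSG00000034765, chr19:53529109-53542431) stood at 20.0, 12.1 and 14.5 CPM in GR+/+ replicates 1, 2 and 3, and at 23.3, 28.4 and 31.8 CPM in GRdim/dim replicates 1, 2 and 3. All GRdim/dim libraries were above all GR+/+ libraries, and an exact two-sided permutation test gave p = 0.1, the smallest value that 3 against 3 allow. Means were 15.5 ± 4.08 CPM in GR+/+ and 27.8 ± 4.24 CPM in GRdim/dim (SD, n = 3), a 1.79-fold difference. On the log2 scale the fold change was 0.84 ± 0.24 (SE), with a 95% interval of 0.31 to 1.37. The unadjusted edgeR p of Dusp5 was 0.00506, rank 291 of all genes tested, and the adjusted p was 0.288. The adjusted p was 0.0688 with DESeq2 and 0.044 without a filter on low counts, within a range of 0.044 to 0.543 over the alternatives. Of the exon bases of Dusp5, 547 of 2473 overlap an annotated gene on the opposite strand, AC137853.2, and the strand setting of the counting was not given in the sources used here. Reads of that antisense gene and of Dusp5 could therefore not be told apart, and the Dusp5 values are uncertain to that extent. The nearest pattern was that of Aldh3a1, at 0.13.

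Dusp4, a nuclear phosphatase for ERK and JNK, was the member with a negative log2 fold change. Dusp4 (chr8:34807297-34819894) stood at 35.6, 23.4 and 26.8 CPM in GR+/+ replicates 1, 2 and 3, and at 24.0, 21.9 and 16 CPM in GRdim/dim. GR+/+ replicate 1 was highest, GRdim/dim replicate 3 was lowest, and GR+/+ replicate 2 lay just under GRdim/dim replicate 1, so the groups overlapped. Means were 28.6 ± 6.26 and 20.6 ± 4.20 CPM (SD, n = 3). For Dusp4 the log2 fold change was -0.47 ± 0.23 (SE), with an interval of -0.98 to 0.05 and an edgeR adjusted p of 0.575. Kctd10 had the nearest pattern, at 0.08.

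Dusp4 and Dusp5 thus lay in opposite directions, and their ratio within each library, chosen after the values were seen, does not depend on library scaling. Scaled by gene length, Dusp5 was 0.624, 0.57 and 0.602 of Dusp4 in GR+/+ replicates 1, 2 and 3, and 1.08, 1.43 and 2.21 of Dusp4 in GRdim/dim replicates 1, 2 and 3. Per kilobase, Dusp4 was above Dusp5 in the 3 GR+/+ libraries and below it in the 3 GRdim/dim libraries. In GRdim/dim replicate 1 the order rests on the length scale, since Dusp4 had 446 counts and Dusp5 433, and the antisense overlap of Dusp5 applies to all these ratios.

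Dusp2, a nuclear phosphatase best known from activated lymphocytes, was the least abundant member. Its counts were 17, 90 and 74 reads in GR+/+ replicates 1, 2 and 3, and 74, 177 and 51 reads in GRdim/dim. In scaled values these were 1.02, 5.40 and 2.35 CPM in GR+/+ and 3.99, 7.35 and 3.29 CPM in GRdim/dim. The groups overlapped, with GR+/+ replicate 1 far below the rest. The log2 fold change of 0.75 ± 0.54 (SE) had an interval of -0.45 to 1.95 and an edgeR adjusted p of 0.731. Without GR+/+ replicate 2 it was 1.51, without GR+/+ replicate 1 it was 0.36, and without GRdim/dim replicate 2 it was 0.33. With the sex-linked covariate the log2 fold change of Dusp2 was 1.31 ± 0.47, with an edgeR p of 0.0202 unadjusted and 0.492 adjusted.

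Lymphocyte markers are given beside Dusp2, whose nearest pattern was that of Lat, a T cell receptor adaptor, at 0.39. All 12 T cell markers were tested, 0 were called by edgeR and 4 were higher in GRdim/dim at an unadjusted p under 0.05, against 4.91% of all genes tested, with a list median of 0.75. Their summed level was 73.1, 116 and 57.9 CPM in GR+/+ replicates 1, 2 and 3, and 105, 131 and 103 CPM in GRdim/dim, with Tcf7 the most abundant. Trac and Cd3e, which encode chains of the T cell receptor complex, had log2 fold changes of 1.32 ± 0.36 and 1.29 ± 0.40, with DESeq2 adjusted p of 0.0253 and 0.0689. For B cell markers, 9 of 12 were higher at that level, against 4.91% of all genes tested, and the sum was 97.8, 202 and 161 CPM in GR+/+ against 241, 772 and 627 CPM in GRdim/dim, led by Ighm. For NK cell markers, 6 of 9 were higher, and the sum was 12.3, 26.2 and 18.1 CPM against 40.3, 48.6 and 29.6 CPM, led by Gzma. No marker of these lists was at 0 in every library, no B or NK cell marker was called by edgeR in the main fit, and the part of lymphocytes in the Dusp2 values was not tested. DESeq2 called 1 T cell marker, Trac, and 3 B cell markers, Bank1, Ighd and Igkc. Without GRdim/dim replicate 1, edgeR called the immunoglobulin genes Ighm and Igkc, with adjusted p of 0.0282 and 0.0156, and it called the same genes with the replicate block. Without a filter on low counts it called 2 T cell markers, Cd3e and Trac, and 1 NK cell marker, Klre1.

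These marker counts moved with single libraries. The 6 NK cell markers became 1 without GRdim/dim replicate 2, 2 and 3 without GR+/+ replicates 1 and 3, 4 without GRdim/dim replicate 1 and 9 without GR+/+ replicate 2. The 9 B cell markers became 5 without GRdim/dim replicate 2, 6 without GR+/+ replicate 1 and 6 without GR+/+ replicate 3. For T cell markers the count was 2 without GR+/+ replicate 1 and 7 without GR+/+ replicate 2, within a range of 2 to 7 over omissions. All 3 list medians stayed above 0 in each omission, with the lowest at 0.48 for T cell markers.

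The cytoplasmic pair Dusp6 and Dusp7 acts on ERK. Dusp6 (chr10:99263231-99267489), a feedback inhibitor downstream of growth factor receptors, stood at 118, 179 and 143 CPM in GR+/+ replicates 1, 2 and 3, and at 153, 236 and 184 CPM in GRdim/dim. The groups overlapped, as GR+/+ replicate 2 exceeded GRdim/dim replicate 1. For Dusp6 the log2 fold change was 0.38 ± 0.22 (SE), with an interval of -0.10 to 0.86 and an edgeR adjusted p of 0.635. Dusp7 (chr9:106368632-106375724), its closest relative, stood at 216, 154 and 158 CPM in GR+/+ and at 175, 202 and 181 CPM in GRdim/dim, within the range of the GR+/+ libraries. Its log2 fold change was 0.08 ± 0.18, with an interval of -0.32 to 0.49 and an edgeR adjusted p of 0.944. The nearest patterns were Gprasp1 for Dusp6 at 0.09 and Nfya for Dusp7 at 0.07.

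Further genes that ERK induces as feedback inhibitors or targets gave a mixed picture beside Dusp6. Of 16 tested, 0 were called by edgeR, 3 were higher and 1 lower at an unadjusted p under 0.05, against 4.91% and 4.68% of all genes tested, and the median was -0.08. The sign of this median turned with single libraries, to 0.04 without GR+/+ replicate 1 and 0.03 without GRdim/dim replicate 2, and it was -0.19 without GR+/+ replicate 3. Spry1 and Spry4 encode Sprouty proteins, which restrain receptor tyrosine kinase signaling, and their log2 fold changes were 0.68 ± 0.20 and 0.70 ± 0.21. Ier3, the most abundant gene of the list, had 0.57 ± 0.17, at 192, 235 and 220 CPM in GR+/+ and 303, 305 and 355 CPM in GRdim/dim. Ccnd1, the G1 cyclin, had -0.45 ± 0.19. The edgeR adjusted p was 0.297 for Spry1, 0.318 for Spry4, 0.312 for Ier3 and 0.477 for Ccnd1. DESeq2 called 0 of the list, and edgeR without a filter on low counts called 1, Spry4, at an adjusted p of 0.0485. Over all genes that edgeR fit called 522 of 31368.

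Of the enzymes that prefer JNK and p38, Dusp8 carried the cAMP response element at 2 places in its promoter (minus strand, chr7:142095235-142095534). It is shown because Dusp1 was the other member with this element. The RefSeq start site of this window lies 559 bases inside the deposited Dusp8 gene, so the whole window falls within the gene as deposited.

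Dusp8: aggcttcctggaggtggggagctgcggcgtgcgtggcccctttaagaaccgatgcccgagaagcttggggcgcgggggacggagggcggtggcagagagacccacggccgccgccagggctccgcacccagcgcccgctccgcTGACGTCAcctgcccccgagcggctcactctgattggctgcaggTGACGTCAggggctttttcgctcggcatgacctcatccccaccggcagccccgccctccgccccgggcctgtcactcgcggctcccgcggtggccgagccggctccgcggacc

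Dusp8 (chr7:142079490-142095843) stood at 51.2, 38 and 42.9 CPM in GR+/+ replicates 1, 2 and 3, and at 44.0, 61.2 and 56.1 CPM in GRdim/dim, with overlap. Its log2 fold change was 0.29 ± 0.19 (SE), with an interval of -0.14 to 0.72 and an edgeR adjusted p of 0.708. An antisense gene, Gm32786, shares 66 exon bases with Dusp8 and had 0 to 5 counts per library. Nectin1 had the nearest pattern, at 0.06.

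Dusp10, which restrains JNK and p38 in immune cells, was the other member whose groups did not overlap. Dusp10 (chr1:184013302-184075636) stood at 6.45, 8.09 and 7.02 CPM in GR+/+ replicates 1, 2 and 3, and at 8.25, 13.3 and 10.1 CPM in GRdim/dim replicates 1, 2 and 3. GR+/+ replicate 2 and GRdim/dim replicate 1 nearly met, so the separation was narrow, and the exact permutation p was again 0.1. Dusp10 had a log2 fold change of 0.55 ± 0.26 (SE), with an interval of -0.04 to 1.14 and an edgeR adjusted p of 0.554. Dmtn was the nearest gene, at 0.06.

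Dusp16, a JNK-selective phosphatase that shuttles between nucleus and cytoplasm, had the smallest pooled SD of log2 CPM within genotypes of the 9 members, 0.19, with a CV of 18.1% in GR+/+ and 3.09% in GRdim/dim. Its level was 87.3, 60.5 and 75.3 CPM in GR+/+ replicates 1, 2 and 3, and 82.4, 83.2 and 78.5 CPM in GRdim/dim. The GRdim/dim libraries lay inside the GR+/+ range, with means of 81.4 ± 2.51 and 74.4 ± 13.4 CPM (SD, n = 3). For Dusp16 the log2 fold change was 0.13 ± 0.17, with an interval of -0.25 to 0.51 and an edgeR adjusted p of 0.887. St7 had the nearest pattern, at 0.02.

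Inflammatory genes whose induction depends on p38 or JNK were examined beside the phosphatases that act on these kinases. Of 13 listed, 11 were tested, 0 were called by edgeR and 3 were higher in GRdim/dim at an unadjusted p under 0.05, against 4.91% of all genes tested, with a median of 0.54. Il1b, a proinflammatory cytokine, stood at 48.2, 32.9 and 30.2 CPM in GR+/+ and at 73.2, 69.1 and 52.6 CPM in GRdim/dim. Its log2 fold change was 0.81 ± 0.22 (SE) with an edgeR adjusted p of 0.262. Nos2, the inducible nitric oxide synthase, and the chemokine Ccl4 had log2 fold changes of 1.29 ± 0.44 and 1.05 ± 0.44, with edgeR adjusted p of 0.392 and 0.483. DESeq2 called 0 of these genes, with 2 at an unadjusted p under 0.05. The edgeR fit without a filter on low counts called 2, Il1b and Nos2, with adjusted p of 0.0133 and 0.0243. Over all genes that edgeR fit called 522 of 31368. Of the 11, 4 had a log2 fold change below 0. Ptgs2, the inducible cyclooxygenase and most abundant gene of the list, was one of them at -0.49 ± 0.35, with overlap and an edgeR adjusted p of 0.731. Its log2 fold change ranged from -0.82 to -0.15 over omissions of a library.

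Neutrophil markers, from cells that are a source of Il1b, are given beside these genes. Of 11 listed, 9 were tested, 0 were called by edgeR and 3 were higher at an unadjusted p under 0.05, against 4.91% of all genes tested. The median was 0.85, and no marker was at 0 in every library. Their summed level was 546, 352 and 281 CPM in GR+/+ replicates 1, 2 and 3, and 1175, 384 and 508 CPM in GRdim/dim, with S100a9 the most abundant. GRdim/dim replicate 1 was the highest library for 8 of the 9 markers, compared with 18.8% of all genes tested, and also for Il1b. Nos2 and Ccl4 were instead highest in GRdim/dim replicate 2. Without GRdim/dim replicate 1 the list median was 0.06. Over all omissions 2 to 6 markers were higher, with 5 without GR+/+ replicate 1 and 6 without GRdim/dim replicates 2 or 3. DESeq2 called 3 of the listed markers, Camp, Ngp and Retnlg, against 274 of the 16143 genes with a DESeq2 adjusted p. The edgeR fit without a filter on low counts called 4, the same genes and S100a9, against 522 of 31368 genes. Without GRdim/dim replicate 3, edgeR called Ngp, a granule protein gene, at an adjusted p of 0.0396. The part of neutrophils in the values of Il1b, Nos2 and Ccl4 was not tested.

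The kinases that these enzymes oppose, and the kinases above and below them, were listed together. Of 41 MAPK cascade kinases, all tested, 0 were called by edgeR, 0 were higher and 3 were lower at an unadjusted p under 0.05, against 4.91% higher and 4.68% lower among all genes tested, and the median was 0.05. The count of lower kinases was 1 without GR+/+ replicate 1, GR+/+ replicate 2, GRdim/dim replicate 1 or GRdim/dim replicate 2, and at most 1 was higher in any omission. Map3k6, an upstream kinase of JNK and p38, stood at 146, 121 and 64.5 CPM in GR+/+ and at 53.1, 42.8 and 62.1 CPM in GRdim/dim. Its log2 fold change was -1.07 ± 0.28 (SE), with an adjusted p of 0.238 from edgeR and 0.0169 from DESeq2. It was the 1 kinase called by DESeq2, and also by edgeR without a filter on low counts, at an adjusted p of 6.54e-05. Over all genes, DESeq2 called 274 of the 16143 with an adjusted p, and that edgeR fit called 522 of 31368. Mknk2 and Rps6ka1, kinases downstream of ERK, had -0.47 ± 0.20 and -0.38 ± 0.16, with edgeR adjusted p of 0.487 and 0.477.

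Phosphatases outside the 9 members were likewise not called. Among 7 other MAPK phosphatases 6 were tested and 0 had an unadjusted p under 0.05, with Ppm1a the most abundant and a median of -0.09. Among 12 atypical dual-specificity phosphatases 11 were tested, and 1, Dusp26, was lower at that level. Its log2 fold change was -0.94 ± 0.37, with an edgeR adjusted p of 0.463. Of all genes tested, 9.6% passed that level in either direction and 4.68% were lower. The unadjusted p of Dusp26 ranged from 0.0281 to 0.095 over omissions of a library, and it was 0.0802 with the sex-linked covariate. Dusp11 was the most abundant of these, and the median of 0.04 turned to -0.08 without GRdim/dim replicate 2.

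The promoter windows of the members were compared over both strands with 32851 RefSeq promoters of the same length. RefSeq promoters (GRCm38.p6) matched 8 of the 9 members, Dusp1, Dusp2, Dusp5, Dusp6, Dusp7, Dusp8, Dusp10 and Dusp16. For Dusp10, as for Dusp8, the window lies inside the deposited gene, with the start site 21079 bases from its 5′ end. The cAMP response element TGACGTCA was in 2 of 8 member promoters and in 1.79% of all promoters. The E-box CACGTG was in 2 of 8, those of Dusp1 and Dusp2, and in 7.15% of all. The CArG box was in 1 of 8, that of Dusp5, and in 1.63% of all. The AP-1 site TGANTCA was in 0 of 8 and in 7.81% of all, and the glucocorticoid half-site AGAACA was in 0 of 8 and in 19% of all. The full palindromic glucocorticoid response element, which contains the half-site, was in 0 of 8 and in 0.00913% of all. These counts describe letters in the 300 bases around a start site and do not show binding.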

How the data were processed

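Bulk RNA-seq of mouse lung gave 6 libraries, 3 per genotype. Gene counts were used as deposited by the authors, who aligned to mm10 (GRCm38) per the submitters' processing notes. The aligner, the counting program and its strand setting were not given in the sources used here. Genes were filtered with filterByExpr and fitted on the whole table with edgeR 4.0.16 (TMM scaling, robust quasi-likelihood, R 4.3.3), with Benjamini-Hochberg adjustment over 16568 genes. DESeq2 1.42.0, RLE scaling, other count filters, a replicate block, a sex-linked covariate and omission of each library were the alternatives. The standard error was the log2 fold change over the square root of F. The procedure was tested on simulated data.

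Members and gene lists were chosen with earlier results of these data known. Named genes were the 9 members and some genes of each list described. These were genes called in the fits given, the most abundant gene and at most 4 of smallest p under 0.05. Outside this rule, Nr4a1, Nr4a3 and Fos were chosen after their values were seen. The nearest genes were also named, 3 for Dusp1 and 1 for each other member, among tested genes with a mean of at least 10 CPM. Promoters came from RefSeq and overlaps from GENCODE. Members shared at most 1.51% of their 31-base words with other genes.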

Additional observations from a re-analysis of the deposited data

How the results depend on the processing

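The log2 fold change of each phosphatase kept its direction in 108 of 108 alternative fits, and 1 of these gave a call: without a filter on low counts Dusp5 had a log2 fold change of 0.84 and an edgeR adjusted p of 0.044, so 1 member was called there. Mean levels per kilobase moved by less than 1 SD under RLE scaling and, for Dusp1, the longer gene length. They also did so in each omission, but this says little. With 3 libraries per genotype, leaving out 1 can hardly move the mean by the SD of the same libraries. Over omissions of a library, log2 fold changes ranged from -0.59 to -0.28 for Dusp4, from 0.70 to 1.07 for Dusp5, from 0.35 to 0.71 for Dusp10, from 0.20 to 0.55 for Dusp6 and from 0.19 to 0.42 for Dusp8. The range came close to 0 for Dusp1 (0.03 to 0.74), Dusp7 (0.00 to 0.26) and Dusp16 (0.01 to 0.26), so the kept sign says little of these.

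Counts of calls depended on the procedure. Over all genes, 28 were called, against 522 without the filter, 274 with DESeq2, and 4 to 22 when a library was left out. Of the listed genes, 1 was called, against 33 without the filter, 17 with DESeq2, 2 with the sex-linked covariate, and 0 to 4 when a library was left out.

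Whether libraries with the same replicate number share more than the number cannot be settled from these values. Their deviations correlated over genes at 0.22, 0.04 and -0.06 for numbers 1, 2 and 3. The 0.22 was the highest of all pairs, and 0.19 for GR+/+ replicate 3 with GRdim/dim replicate 2 came next. Not every library correlated best with its own number. With the replicate block, 34 genes and 3 listed genes were called and 0 members, with 3 members at an unadjusted p under 0.05.

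Dusp2 had the fewest counts of the 9 members, 17 to 177 per library, and the widest interval, -0.45 to 1.95 on the log2 scale.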
